A study of Homo sapiens with 16 samples.

Results

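A set of 10 zinc finger genes of the long arm of human chromosome 19 were described across 4 lines of HCT116 cells, a colorectal carcinoma line. They are 10 of the 23669 genes of a table of read counts. ZNF614 and ZFP30 were chosen because almost none of their reads remained in the shCDK8 line, so their levels in that line are given as a description, with no test. The other 8 genes were chosen by position, to see whether neighbours were low in the same line. They are ZNF613, ZNF615, ZNF432, ZNF841 and ZNF616 around ZNF614, and ZNF540, ZNF571 and ZNF781 around ZFP30. Not every near gene is among them, as ZNF350 near ZNF614 and ZNF607 near ZFP30 are left out. Earlier results of these data were known when they were chosen. Of the 10, 7 had enough reads to be tested. ZNF540, ZNF571 and ZNF781 had at most 8 reads in any library and were not tested.

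The lines were shCDK8, which stably expresses a short hairpin RNA against CDK8, the kinase of the Mediator complex; shTIP60, with a hairpin against TIP60 (gene KAT5), a histone acetyltransferase; HIF1A-null, in which the gene of the hypoxia-inducible factor subunit HIF1A was deleted; and shNT, with a non-targeting hairpin. Each line was kept in hypoxia (1% oxygen for 24 h) or normoxia (21% oxygen), with 2 libraries of polyadenylated RNA per line and condition, 16 in all, from independent biological replicates per the series text. The 2 libraries of a group are called A and B here, after 2 series of library numbers in the table's column names. Each target was altered in 1 line, so that loss of the target, the history of that line and any other effect of its hairpin cannot be told apart.

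Zinc finger proteins of this kind read DNA through a row of C2H2 fingers, each gripping a few bases, and many carry a KRAB domain that recruits the corepressor TRIM28, the histone H3 lysine 9 methyltransferase SETDB1 and HP1 proteins to keep chromatin silent. In the human genome they arose largely by tandem duplication and lie in clusters, many of them on chromosome 19, where neighbouring genes are similar in sequence. What most of the 10 bind is poorly known. ZNF350, also called ZBRK1, lies in the ZNF614 cluster and is known as a repressor that works with BRCA1.

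In the GRCh37 annotation the ZNF614 cluster ran, along the chromosome, through ZNF613 (chr19:52430400-52452012, plus strand), ZNF615 (chr19:52494585-52511483), ZNF614 (chr19:52516018-52533493), ZNF432 (chr19:52534631-52598991), ZNF841 (chr19:52567718-52599018) and ZNF616 (chr19:52616344-52643191), the last 5 all on the minus strand. The ZFP30 cluster held ZNF540 (chr19:38042308-38105080, plus strand), ZNF571 (chr19:38045684-38085693, minus strand), ZFP30 (chr19:38104650-38183238, minus strand) and ZNF781 (chr19:38158652-38183216, minus strand, annotated as a long noncoding RNA). ZNF432 and ZNF841 share 31274 bases of one strand, with 199 bases of exon in common over all transcripts. ZFP30 and ZNF781 share 24565 bases of one strand, with 334 bases of exon in common. ZNF540 overlaps ZNF571 by 40010 bases and ZFP30 by 431 bases on the opposite strand. The strand setting of the counting was not given in the sources used here, so reads from these overlapping pairs, and from near-identical stretches of related zinc finger genes, could be misassigned or left uncounted.

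Promoter windows of the genes on which the results turn are shown because 4 genes of the ZNF614 cluster shared an 8-base word. RefSeq promoters (build GRCh38.p14, 250 bases before to 50 after the start) matched 8 of the 10 members. Only the first listed start of each gene was read, so any other promoter of a gene was not searched. The windows of ZNF613 (chr19:51927222-51927521, plus strand), ZNF615 (chr19:52008162-52008461, minus strand), ZNF614 (chr19:52028330-52028629, minus strand), ZNF432 (chr19:52048789-52049088, minus strand), ZNF616 (chr19:52139889-52140188, minus strand) and ZFP30 (chr19:37656212-37656511, minus strand) read as follows, 5′ to 3′, with AAGATGGC or its reverse complement in capitals:
ZNF613: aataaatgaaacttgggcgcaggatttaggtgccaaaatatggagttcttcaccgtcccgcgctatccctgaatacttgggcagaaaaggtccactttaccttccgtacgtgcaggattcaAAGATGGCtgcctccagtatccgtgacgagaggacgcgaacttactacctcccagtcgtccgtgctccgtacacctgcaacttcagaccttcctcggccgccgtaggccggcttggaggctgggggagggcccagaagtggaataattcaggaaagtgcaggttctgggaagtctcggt
ZNF615: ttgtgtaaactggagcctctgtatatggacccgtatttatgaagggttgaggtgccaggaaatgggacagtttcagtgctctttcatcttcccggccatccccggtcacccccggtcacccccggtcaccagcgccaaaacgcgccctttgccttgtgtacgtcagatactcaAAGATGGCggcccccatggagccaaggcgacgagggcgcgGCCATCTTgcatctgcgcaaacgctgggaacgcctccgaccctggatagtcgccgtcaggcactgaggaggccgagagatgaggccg
ZNF614: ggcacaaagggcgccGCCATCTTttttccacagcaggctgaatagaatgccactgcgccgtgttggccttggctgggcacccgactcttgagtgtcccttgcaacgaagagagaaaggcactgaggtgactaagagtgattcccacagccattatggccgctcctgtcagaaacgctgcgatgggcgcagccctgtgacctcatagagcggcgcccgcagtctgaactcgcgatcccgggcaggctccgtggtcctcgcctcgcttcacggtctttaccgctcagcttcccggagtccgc
ZNF432: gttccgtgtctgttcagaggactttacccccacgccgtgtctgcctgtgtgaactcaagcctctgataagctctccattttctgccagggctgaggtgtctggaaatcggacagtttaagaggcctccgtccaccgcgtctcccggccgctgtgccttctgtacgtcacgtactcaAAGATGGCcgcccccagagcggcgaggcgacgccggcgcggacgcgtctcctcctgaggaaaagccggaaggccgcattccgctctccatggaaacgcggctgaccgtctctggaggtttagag
ZNF616: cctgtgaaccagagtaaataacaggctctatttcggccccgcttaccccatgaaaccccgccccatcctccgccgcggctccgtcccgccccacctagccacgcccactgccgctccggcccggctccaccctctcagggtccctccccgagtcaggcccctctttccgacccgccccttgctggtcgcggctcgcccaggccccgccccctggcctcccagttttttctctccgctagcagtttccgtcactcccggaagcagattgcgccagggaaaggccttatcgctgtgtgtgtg
ZFP30: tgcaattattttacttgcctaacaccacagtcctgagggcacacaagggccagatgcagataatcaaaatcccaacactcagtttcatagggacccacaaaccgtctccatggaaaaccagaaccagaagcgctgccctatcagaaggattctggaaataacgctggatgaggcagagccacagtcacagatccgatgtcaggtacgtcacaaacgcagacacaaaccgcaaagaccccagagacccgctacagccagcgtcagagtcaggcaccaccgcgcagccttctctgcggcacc

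AAGATGGC is the core of the word bound by YY1, a zinc finger factor of many promoters. It began 129 bases before the start in ZNF613, 77 and 37 bases before it in ZNF615, 235 bases before it in ZNF614 and 74 bases before it in ZNF432, counting both strands. No match was found in the windows of ZNF616, ZNF841, ZFP30, ZNF540 or ZNF350. The word was in 828 of 27305 promoter windows of this length (3.03%) and in 14 of 216 windows of chromosome 19 genes named ZNF or ZFP (6.48%). CCGGAAG, a word bound by ETS factors, was in the windows of ZNF432, ZNF841 and ZNF616, and in 10.7% of all windows and 44.4% of those of chromosome 19 zinc finger genes; it shared no base with AAGATGGC in ZNF432. TGACGTCA, the cyclic AMP response element, was in none of the members' windows and in 1.98% of all. The words were picked after the sequences had been read, and a match is a description of letters, not of a bound site. The 4 members with AAGATGGC were low or absent in shCDK8, which was known for ZNF614 when it was chosen. ZNF616, without the word, did not pass the test there. ZNF841, without it, and ZNF432, with it, were both scarce in every line. ZFP30 and ZNF350 were also low and had no match. Other genes low in shCDK8 were not looked up by name, so whether the word goes with a low level was not tested.

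Total counts per library ran from 26620086 to 39401494. Levels are given as CPM, a gene's count as a share of its library's total, scaled by trimmed mean of M-values, and 3 counts, the limit that a count of 0 allows, came to 0.0716 to 0.112 CPM in a library; intervals and this limit cover counting error only. The epithelial markers EPCAM (129 to 215 CPM) and KRT8 (1372 to 5202 CPM) were high in every library, and the leukocyte marker PTPRC stayed at or below 0.054 CPM and the fibroblast gene DCN at or below 0.0649 CPM, although COL1A1, also a fibroblast gene, had 21.5 to 81.9 CPM. CDK8 averaged 6.29 ± 0.73 CPM in shCDK8 and 26.0 ± 1.8 CPM in shNT in normoxia (SD, n = 2 each), and 5.64 ± 0.27 CPM in shCDK8 and 28.1 ± 0.28 CPM in shNT in hypoxia. KAT5 averaged 19.7 CPM in shTIP60 and 85.8 CPM in shNT in normoxia. HIF1A averaged 13.6 CPM in HIF1A-null and 107.5 CPM in shNT in normoxia, but 40.1 and 57.6 CPM in the HIF1A-null libraries and 61.2 and 70.5 CPM in the shNT libraries in hypoxia (log2 fold change -0.43, edgeR adjusted p = 0.0283). From normoxia to hypoxia HIF1A rose in HIF1A-null (log2 fold change 1.85, edgeR adjusted p = 4.906e-07). It was called lower in hypoxia in shNT (-0.71), shCDK8 (-0.98) and shTIP60 (-0.94). Where in the gene the HIF1A reads of the HIF1A-null libraries lie was not tested. The count of this gene is therefore a weak check of the HIF1A-null label in hypoxia.

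ZNF614 had no read in any of the 4 shCDK8 libraries. In normoxia its counts were 0 and 0 in shCDK8, 160 and 173 in shTIP60, 168 and 220 in HIF1A-null, and 151 and 235 in shNT, libraries A and B. In hypoxia they were 0 and 0 in shCDK8, 192 and 182 in shTIP60, 72 and 72 in HIF1A-null, and 162 and 188 in shNT. The shCDK8 libraries stood apart from all others, and outside shCDK8 the HIF1A-null libraries in hypoxia were the lowest. In mean level ZNF614 had 0 CPM in shCDK8 and 5.13 ± 0.68 CPM in shNT in normoxia, and 0 CPM in shCDK8 and 5.90 ± 0.44 CPM in shNT in hypoxia (SD, n = 2 each). Set against the limit of 3 counts over the group, its level in shCDK8 was lower than in shNT by at least 107.0-fold in normoxia and at least 142.7-fold in hypoxia. In bulk RNA, fewer cells with the transcript and less transcript per cell cannot be told apart.

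ZFP30, a KRAB zinc finger gene, was nearly as low. In normoxia its counts were 1 and 1 in shCDK8, 83 and 60 in shTIP60, 96 and 129 in HIF1A-null, and 151 and 250 in shNT. In hypoxia they were 2 and 0 in shCDK8, 56 and 53 in shTIP60, 34 and 48 in HIF1A-null, and 118 and 149 in shNT. In mean level, shTIP60 and HIF1A-null lay between shNT and shCDK8. In normoxia ZFP30 had 2.12 CPM in shTIP60, 2.83 CPM in HIF1A-null and 5.31 CPM in shNT. In hypoxia it had 1.67, 1.41 and 4.50 CPM in the same lines. The ratio of shNT to shCDK8 for ZFP30 was 166.8 in normoxia (95% counting interval 45.9 to 1382) and 163.3 in hypoxia (44.8 to 1355).

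**Figure D1:**
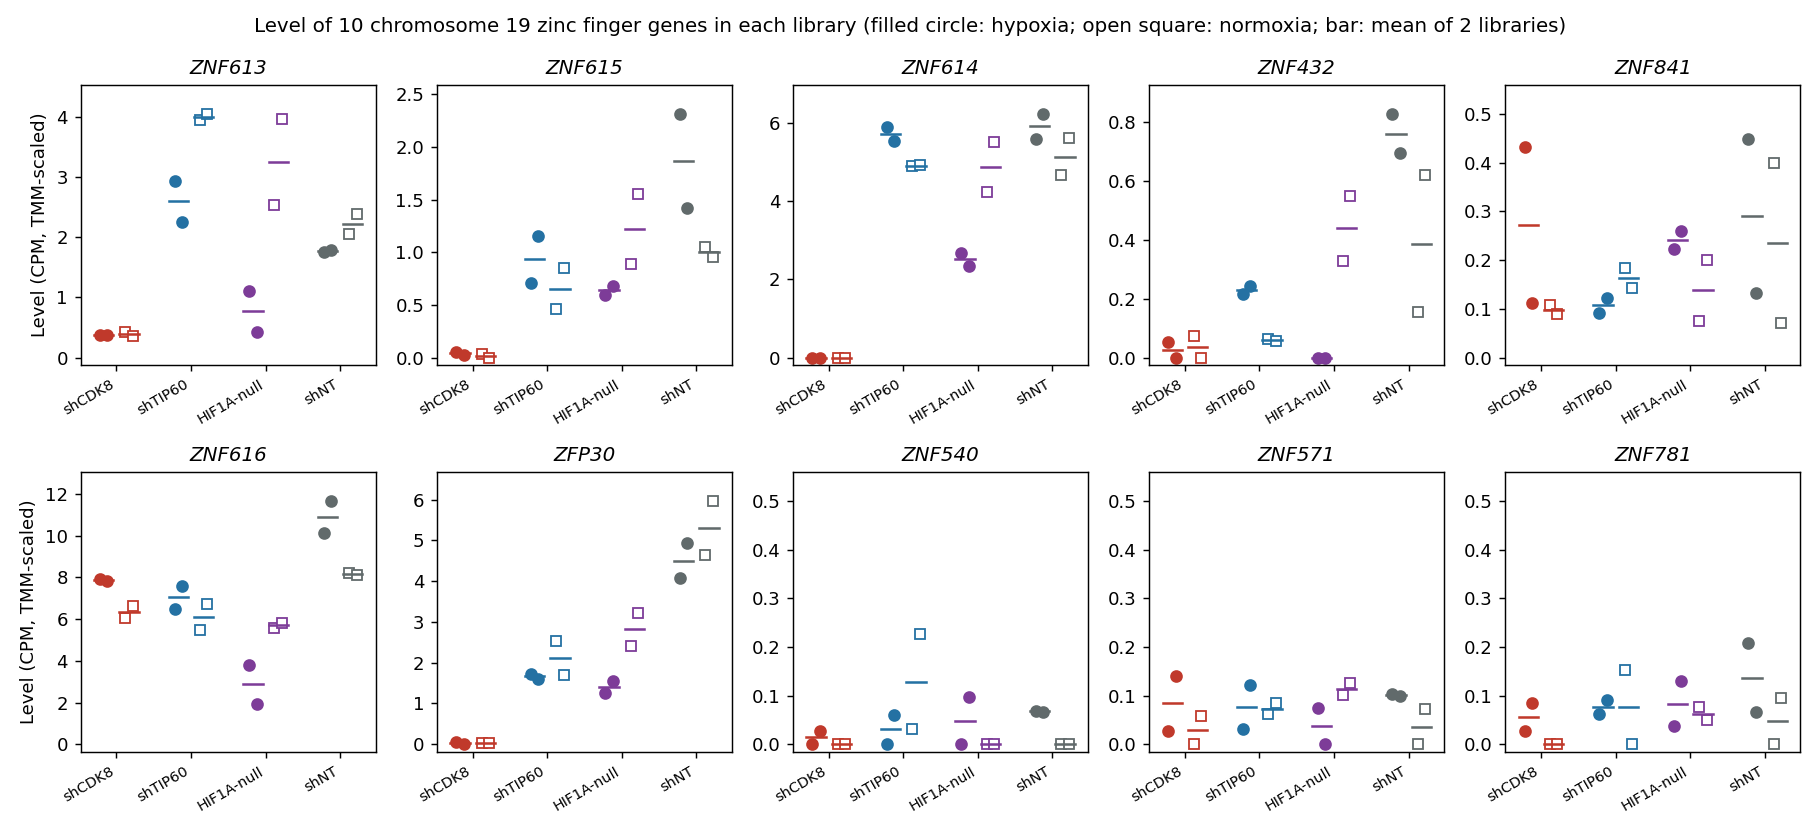
Level of the 10 genes in each library (CPM, y axis, scaled per gene), by line along the x axis; filled circles are hypoxia, open squares normoxia, and bars the mean of 2 libraries. ZNF614 and ZFP30 lie at or near 0 in shCDK8, ZNF613, ZNF615 and ZNF432 are lower in shCDK8 than in shNT, and ZNF616 lies between 6.06 and 7.94 CPM in shCDK8.

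Of the 8 neighbours, 5 were tested and 3, ZNF613, ZNF615 and ZNF432, were lower in shCDK8 than in shNT in both oxygen conditions, all 3 in the ZNF614 cluster, while ZNF616 and ZNF841 did not pass the test. Over all 15520 genes tested, 7.27% were called lower in shCDK8 in normoxia and 13.4% in hypoxia, against 3 of 8 neighbours in each. Calls are edgeR quasi-likelihood tests with Benjamini-Hochberg adjustment over all genes tested.

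ZNF615, the next gene on the minus strand past ZNF614, was close to absent. Its counts were 1 and 0 in shCDK8 and 34 and 40 in shNT in normoxia, and 2 and 1 in shCDK8 and 67 and 43 in shNT in hypoxia. Every shNT library was far above every shCDK8 library. The ratio of shNT to shCDK8 was 61.6 in normoxia (95% counting interval 10.7 to 2464, edgeR adjusted p = 0.0002453) and 44.9 in hypoxia (14.95 to 220.8, edgeR adjusted p = 2.868e-05).

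ZNF613 kept some reads. Its counts were 12 and 12 in shCDK8 and 67 and 100 in shNT in normoxia, and 14 and 13 in shCDK8 and 51 and 54 in shNT in hypoxia. The level was even across the 4 shCDK8 libraries, at 0.353 to 0.43 CPM. The log2 fold change of shCDK8 over shNT was -2.51 ± 0.40 (SE) in normoxia (edgeR adjusted p = 0.0004575) and -2.24 ± 0.40 in hypoxia (edgeR adjusted p = 0.0007839).

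ZNF432, whose annotated span begins just past ZNF614, was scarce in every line. Its counts were 2 and 0 in shCDK8 and 5 and 26 in shNT in normoxia, and 2 and 0 in shCDK8 and 24 and 21 in shNT in hypoxia. In normoxia the 2 shNT libraries were far apart and library A was near the shCDK8 values. The ratio of shNT to shCDK8 was 12.9 in normoxia (95% counting interval 3.281 to 111.2, edgeR adjusted p = 0.03701) and 27.5 in hypoxia (7.189 to 234.2, edgeR adjusted p = 0.002483). The normoxia call was lost without shNT library B (adjusted p = 0.4414) and without shCDK8 library B (adjusted p = 0.2475).

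ZNF616, at the far end of the cluster, was the most abundant member per length, at 1.46 CPM per kb of its canonical transcript in shCDK8 and 1.88 in shNT in normoxia. Its counts were 169 and 225 in shCDK8 and 267 and 340 in shNT in normoxia, and 294 and 277 in shCDK8 and 294 and 353 in shNT in hypoxia. In CPM every shCDK8 library was below its shNT counterparts, but the log2 fold changes, -0.36 ± 0.22 in normoxia (edgeR adjusted p = 0.3355) and -0.47 ± 0.22 in hypoxia (edgeR adjusted p = 0.126), did not pass. ZNF841 had 3 to 16 counts in every library of the series. Its log2 fold changes of -1.17 ± 0.97 in normoxia and -0.07 ± 0.78 in hypoxia did not pass, and with these standard errors a change of a few fold was not detectable at this depth.

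The neighbours of ZFP30 could not be read in the same way. ZNF540, ZNF571 and ZNF781 had at most 8, 5 and 6 counts in any library, shNT included. In normoxia ZNF571 had 0 and 2 counts in shCDK8 and 0 and 3 in shNT, ZNF781 had 0 and 0 in shCDK8 and 0 and 4 in shNT, and ZNF540 had no read in any of these 4 libraries. In hypoxia ZNF571 had 1 and 5 counts in shCDK8 and 3 and 3 in shNT, ZNF781 had 1 and 3 in shCDK8 and 6 and 2 in shNT, and ZNF540 had 0 and 1 in shCDK8 and 2 and 2 in shNT. The lines overlapped or stood within a few reads of each other throughout. A loss of these 3 genes in shCDK8 was therefore not detectable at this depth.

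The 15 genes of the table on each side of ZNF614 and of ZFP30 placed the members in their surroundings. Only genes whose symbols matched the annotation were placed, so a neighbour listed under another symbol could be missing. HKR1, a gene of the table, was not among the 60 placed. It averaged 10 CPM in shNT and 1.95 CPM in shCDK8 in normoxia, and 10.4 and 1.93 CPM in hypoxia. Of the 60 genes, 32 were tested, 16 in each set, and the 28 others had at most 9 counts in any library. Around ZNF614, 9 of 16 were lower in normoxia in shCDK8 than in shNT and none was higher (edgeR; 7.27% of all genes lower), and the same 9 were lower in hypoxia: FPR1, ZNF577, ZNF649, ZNF613, ZNF350, ZNF615, ZNF432, ZNF808 and ZNF701. The median log2 fold change of the 16 was -0.98 in normoxia and -0.82 in hypoxia, against 0.009 and 0.016 over all genes tested. Around ZFP30, 2 of 16 were lower and 1 higher in normoxia, against 7.27% and 5.8% of all genes. In hypoxia 6 were lower and 1 higher, against 13.4% and 14.4% of all genes. SIPA1L3, which encodes a protein of cell polarity and adhesion, was lower in both and ZNF585B was higher in both. Over both sets, 12 genes were called in normoxia, and this number was 5 without shNT normoxia library B and 6 without shCDK8 normoxia library B.

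ZNF350, which lies between ZNF613 and ZNF615, was also nearly absent from shCDK8. Its counts were 1 and 1 in shCDK8 and 39 and 59 in shNT in normoxia, and 5 and 3 in shCDK8 and 116 and 94 in shNT in hypoxia. The groups were far apart in both oxygen conditions. The ratio of shNT to shCDK8 was 40.8 in normoxia (95% counting interval 10.99 to 341.3, edgeR adjusted p = 1.497e-05), and the log2 fold change was -4.96 ± 0.42 in hypoxia (edgeR adjusted p = 6.139e-07). Farther out, ZNF701 had log2 fold changes of -1.83 ± 0.24 and -1.85 ± 0.22, ZNF577 of -1.14 ± 0.30 and -1.69 ± 0.29, ZNF808 of -0.76 ± 0.23 and -0.98 ± 0.21, and ZNF649 of -0.83 ± 0.21 and -0.66 ± 0.21, in normoxia and hypoxia. FPR1, the receptor for formylated peptides, had 1 count in shCDK8 and 19 in shNT over both normoxia libraries, and 0 in shCDK8 and 10 in shNT in hypoxia. Genes among these that were not called lower included PPP2R1A, a scaffold subunit of protein phosphatase 2A, with log2 fold changes of 0.17 and 0.36, and ZNF766, with 0.05 and -0.31. In chromosomal order, ZNF175 at one end was not called, every tested gene from FPR1 through ZNF432 was lower in both oxygen conditions (ZNF614, among them, was chosen for this), the tested genes from ZNF841 through ZNF578 were not called, and ZNF808 and ZNF701 at the other end were lower.

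**Figure D2:**
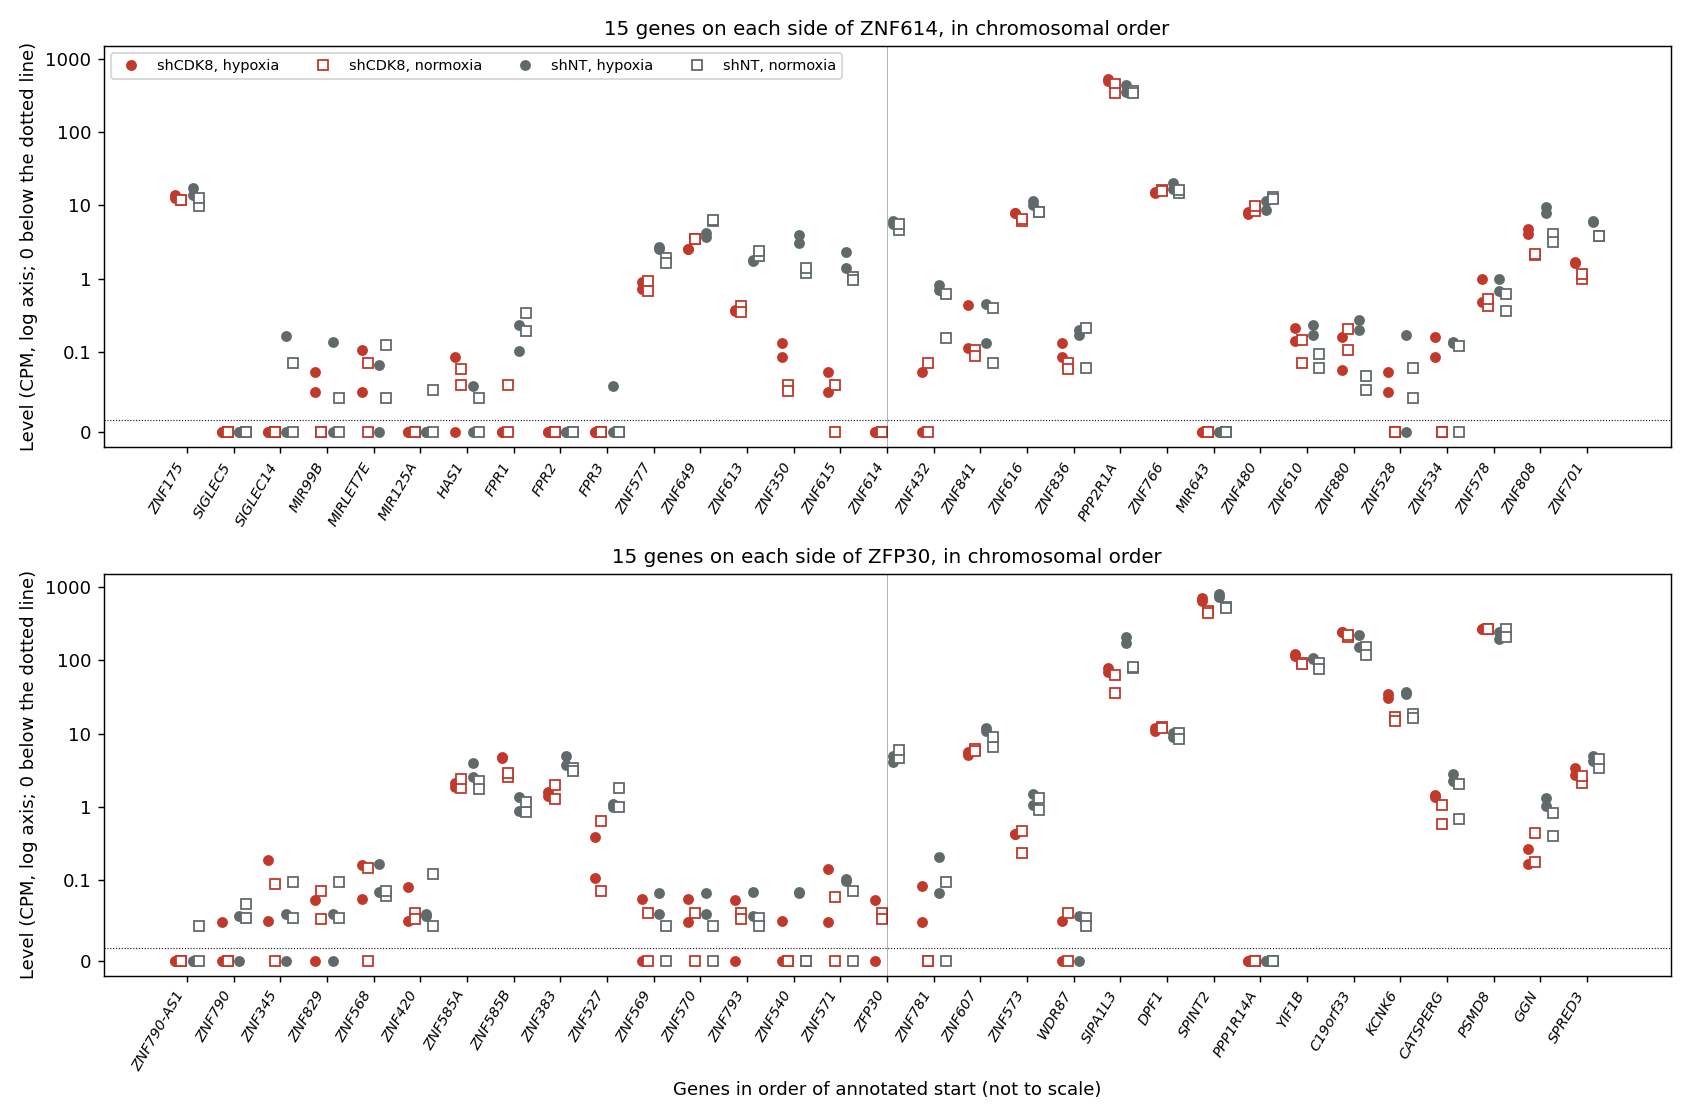
Level (CPM, log y axis with 0 below the dotted line) of the 15 genes on each side of ZNF614 (top) and of ZFP30 (bottom), in chromosomal order and not to scale; red is shCDK8, grey shNT, filled circles hypoxia and open squares normoxia, 1 point per library. ZNF613, ZNF350, ZNF615 and ZNF432 lie below shNT in shCDK8 while PPP2R1A and ZNF766 overlap or lie near it.

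Around ZFP30, SIPA1L3 had 63.9 and 36.2 CPM in shCDK8 and 78.4 and 80.3 CPM in shNT in normoxia, and 77.6 and 69.1 CPM in shCDK8 and 206.7 and 170.5 CPM in shNT in hypoxia. Its log2 fold change was -0.67 ± 0.21 in normoxia (edgeR adjusted p = 0.04559) and -1.36 ± 0.21 in hypoxia (edgeR adjusted p = 0.0002157). ZNF585B had 2.58 and 2.89 CPM in shCDK8 and 0.862 and 1.17 CPM in shNT in normoxia, with log2 fold changes of 1.41 ± 0.26 in normoxia and 2.05 ± 0.25 in hypoxia. ZNF607, the second gene past ZFP30 on that side, had log2 fold changes of -0.39 (edgeR adjusted p = 0.18) in normoxia and -1.07 ± 0.18 (edgeR adjusted p = 0.0003891) in hypoxia. The differences of ZNF585B and SIPA1L3 from shNT were not limited to shCDK8. ZNF585B was also called higher than in shNT in shTIP60 and in HIF1A-null, in both oxygen conditions. SIPA1L3 was also called lower than in shNT in both of these lines in hypoxia. The same held for some genes around ZNF614. ZNF701 was also called lower in shTIP60 in both oxygen conditions and in HIF1A-null in hypoxia. In HIF1A-null, ZNF350, ZNF577 and FPR1 were also called lower in hypoxia and ZNF649 in normoxia, while FPR1 was called higher in shTIP60 in both conditions.

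The comparison of shCDK8 with shTIP60, which carries another hairpin, again gave ZNF613 and ZNF615. In shCDK8, ZNF613 and ZNF615 were lower than in shTIP60 in both oxygen conditions (2 of 8 neighbours; 15.6% of all genes lower in normoxia and 18.1% in hypoxia). ZNF613 had 12 and 12 counts in shCDK8 and 129 and 143 in shTIP60 in normoxia, with a log2 fold change of -3.35 ± 0.39 (edgeR adjusted p = 1.099e-05), and the change was -2.79 ± 0.39 in hypoxia (edgeR adjusted p = 5.448e-05). ZNF615 had 1 and 0 counts in shCDK8 and 15 and 30 in shTIP60 in normoxia, a ratio of shTIP60 to shCDK8 of 41.0 (95% counting interval 6.99 to 1654, edgeR adjusted p = 0.0005069), and a ratio of 22.5 in hypoxia (7.35 to 112.2, edgeR adjusted p = 0.0001753). ZNF432 did not pass in either condition (edgeR adjusted p = 0.7298 and 0.05677), and its counts in shTIP60 were 2 and 2 in normoxia and 7 and 8 in hypoxia. ZNF616 had log2 fold changes of 0.05 ± 0.23 and 0.16 ± 0.22, which did not pass. This comparison shares the shCDK8 libraries with the one above.

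In shTIP60 against shNT, ZFP30 alone of the 10 was called, lower in both conditions (8.13% of all genes lower in normoxia and 10.5% in hypoxia). Its log2 fold change was -1.33 ± 0.29 in normoxia (edgeR adjusted p = 0.004273) and -1.43 ± 0.30 in hypoxia (edgeR adjusted p = 0.002688). The normoxia call was lost without shNT library B (adjusted p = 0.05415) and without shTIP60 library B (adjusted p = 0.07402). ZNF614 averaged 4.90 CPM in shTIP60 and 5.13 CPM in shNT in normoxia, and 5.72 CPM in shTIP60 and 5.90 CPM in shNT in hypoxia, and the libraries of both lines overlapped in each condition (edgeR adjusted p = 0.8712 and 0.9046). ZNF432 in normoxia, at -2.69 ± 0.90, narrowly did not pass (edgeR adjusted p = 0.05023). It had 4 counts in shTIP60 and 31 in shNT over both libraries. ZNF613 in normoxia, higher by 0.84 ± 0.32, did not pass (edgeR adjusted p = 0.07642). Both passed with no filter on low counts, with a block by library number series or with only the groups compared.

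In HIF1A-null against shNT in normoxia, ZFP30 alone was called, lower with a log2 fold change of -0.91 ± 0.28 (edgeR adjusted p = 0.04434; 5.86% of all genes lower). This call was lost on removal of any one of the 4 libraries compared, with adjusted p of 0.05546 to 0.3151, and in a fit of only the 2 groups (adjusted p = 0.09987). In hypoxia HIF1A itself had a log2 fold change of only -0.43. There 6 of the 7 members tested were lower in HIF1A-null than in shNT, a condition in which 20.8% of all genes were lower. They were ZNF614, ZNF613, ZNF615, ZNF432, ZNF616 and ZFP30, so ZNF616, which did not pass in shCDK8, was among them. Around ZNF614, 11 of the 16 flanking genes tested were lower in HIF1A-null and 0 higher, with a median log2 fold change of -0.81 (0.005 over all genes). Of all chromosome 19 zinc finger genes tested, 52.2% were lower in this comparison. Around ZFP30, 5 of 16 were lower and 4 higher, with a median of 0.12, against 20.8% lower and 20.3% higher of all genes. In shTIP60 against shNT in hypoxia, 1 of the 16 around ZNF614 was lower (ZNF701) and 1 higher (FPR1), against 10.5% and 11.3% of all genes. Whether these counts differ between the lines was not tested.

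ZNF616 had 102 and 60 counts in HIF1A-null and 294 and 353 in shNT in hypoxia, with a log2 fold change of -1.94 ± 0.24 (edgeR adjusted p = 1.308e-05). Both HIF1A-null libraries lay far below both shNT libraries. ZNF614 had a log2 fold change of -1.24 ± 0.23 (edgeR adjusted p = 0.0006393) and ZFP30 of -1.67 ± 0.31 (edgeR adjusted p = 0.0004662). ZNF432 had 0 and 0 counts in HIF1A-null and 24 and 21 in shNT, at least 14.6-fold lower (edgeR adjusted p = 0.0007671). ZNF613, at -1.23 ± 0.38 (edgeR adjusted p = 0.01642), lost its call without shNT library B (adjusted p = 0.05542), without HIF1A-null library B (adjusted p = 0.1941) and in a fit of only the 2 groups (adjusted p = 0.08932). ZNF615, at -1.54 ± 0.45 (edgeR adjusted p = 0.01233), lost its call without shNT library A (adjusted p = 0.1107) and without HIF1A-null library A (adjusted p = 0.06106).

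The response to 24 h of hypoxia was read within each line. In shNT none of the 7 members tested was called by edgeR, while 40.7% of all genes tested were. ZNF615 had an unadjusted p under 0.05 there, and DESeq2 called 0. In shCDK8 none of the 5 neighbours tested was called against 24.8% of all genes, and in shTIP60 none of the 7 members against 39.2%. In each, 0 had an unadjusted p under 0.05 and DESeq2 called 0. In HIF1A-null, 5 of the 7 were lower in hypoxia than in normoxia, against 19.1% of all genes: ZNF614, ZNF613, ZNF432, ZNF616 and ZFP30.

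ZNF613 had 30 and 13 counts in hypoxia and 101 and 159 in normoxia in HIF1A-null cells, with a log2 fold change of -2.11 ± 0.36 (edgeR adjusted p = 0.0003273). ZNF614 had 72 and 72 counts in hypoxia and 168 and 220 in normoxia, with a log2 fold change of -0.96 ± 0.23 (edgeR adjusted p = 0.004187). The counts of both genes in the hypoxia libraries were below those in the normoxia libraries. ZNF432 had 0 and 0 counts in hypoxia and 13 and 22 in normoxia, at least 8.46-fold lower (edgeR adjusted p = 0.003425). ZNF616 had a log2 fold change of -1.0 ± 0.24 (edgeR adjusted p = 0.004094), which was lost without HIF1A-null hypoxia library B (adjusted p = 0.06667). ZFP30 had -0.996 ± 0.31 (edgeR adjusted p = 0.01816), which was lost without HIF1A-null normoxia library B (adjusted p = 0.112), without hypoxia library A (adjusted p = 0.09233) or in a fit of only the 2 groups (adjusted p = 0.06694). ZNF615, at -0.93 ± 0.45 (edgeR adjusted p = 0.1202), did not pass.

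The response itself was also compared between lines. ZNF614, ZNF613, ZNF432 and ZNF616 responded lower in HIF1A-null than in shNT (edgeR interaction term; 8.92% of all genes lower). For ZNF616 the difference of the log2 responses was -1.42 ± 0.33 (edgeR adjusted p = 0.008596); its level was 2.87 ± 1.30 CPM in hypoxia and 5.71 ± 0.18 CPM in normoxia in HIF1A-null and 10.9 ± 1.1 CPM in hypoxia and 8.17 ± 0.07 CPM in normoxia in shNT (SD, n = 2 each). ZNF614, at -1.16 ± 0.31 (edgeR adjusted p = 0.02143), lost its call without shNT normoxia library A, shNT hypoxia library B or HIF1A-null library B of either condition (adjusted p of 0.05932 to 0.0909). ZNF613, at -1.77 ± 0.49 (edgeR adjusted p = 0.02309), lost it without any of the same 4 libraries or shNT hypoxia library A (adjusted p of 0.05008 to 0.1035). The count of 4 was 2 without shNT normoxia library A or without HIF1A-null library B of either condition, and 1 in a fit of only the 4 groups compared. ZNF615 and ZFP30 did not pass (edgeR adjusted p = 0.05541 and 0.2303). For shCDK8, none of the 5 neighbours tested, and for shTIP60, none of the 7 members tested, passed the test of a response different from that of shNT. Of all genes, 0.0387% and 0.0322% were called, and in each 0 members had an unadjusted p under 0.05 and 0 were called by DESeq2. Where a gene has no read in a line, its response there cannot be measured.

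**Figure D3:**
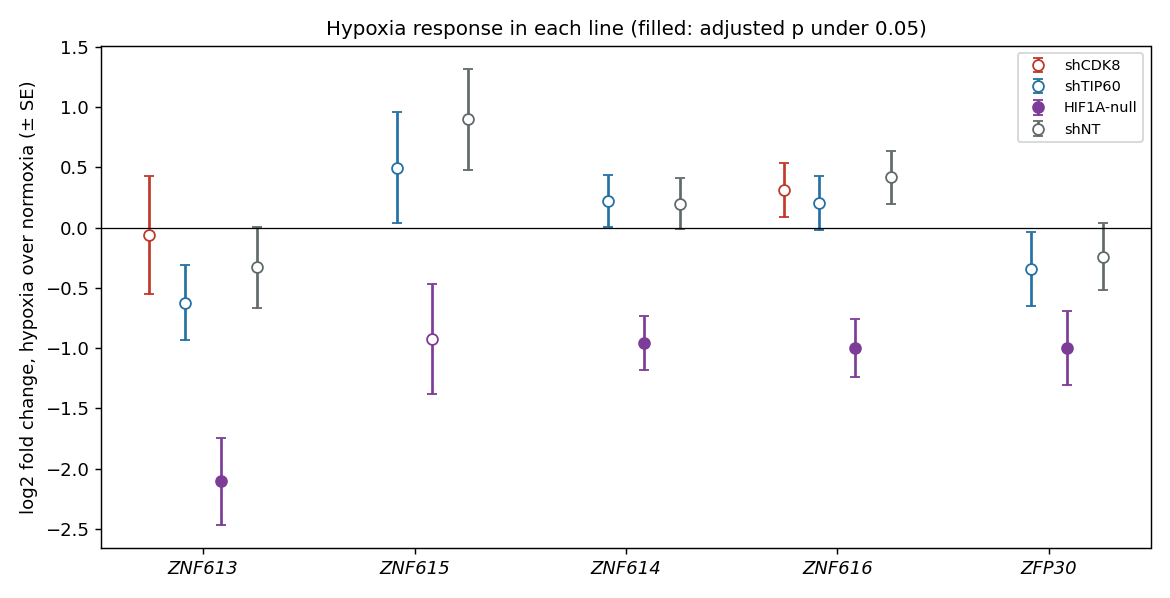
Hypoxia response (log2 fold change of hypoxia over normoxia, ± SE, y axis) of 5 genes in each line; filled points had an adjusted p under 0.05, and lines with 3 or fewer counts in a group are left out, as is ZNF432. The HIF1A-null points of ZNF613, ZNF614, ZNF616 and ZFP30 are filled and lie at -0.96 or lower, and no point of the other lines is filled.

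Beyond the 2 clusters, 178 of the 254 chromosome 19 genes of the table whose symbols begin with ZNF or ZFP were tested, 7 of the 254 being annotated as other than protein coding. In shCDK8 against shNT, 48 were lower (27%) and 1 higher in normoxia, and 65 lower (36.5%) and 5 higher in hypoxia, with median log2 fold changes of -0.41 and -0.45 (0.009 and 0.016 over all genes). In shTIP60 against shNT, 8 were lower (4.49%) and 8 higher in normoxia, and 17 lower (9.55%) and 7 higher in hypoxia. In HIF1A-null against shNT, 27 were lower (15.2%) and 2 higher in normoxia, and 93 lower (52.2%) and 7 higher in hypoxia. Over all genes tested, the share called higher was 5.8% in normoxia and 14.4% in hypoxia in shCDK8, 10.3% and 11.3% in shTIP60, and 5.86% and 20.3% in HIF1A-null. The list includes the members, and these comparisons share the shNT libraries. Without ZNF614 and ZFP30, chosen for their level in shCDK8, 46 of 176 were lower in shCDK8 in normoxia (26.1%) and 63 in hypoxia (35.8%).

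**Figure D4:**
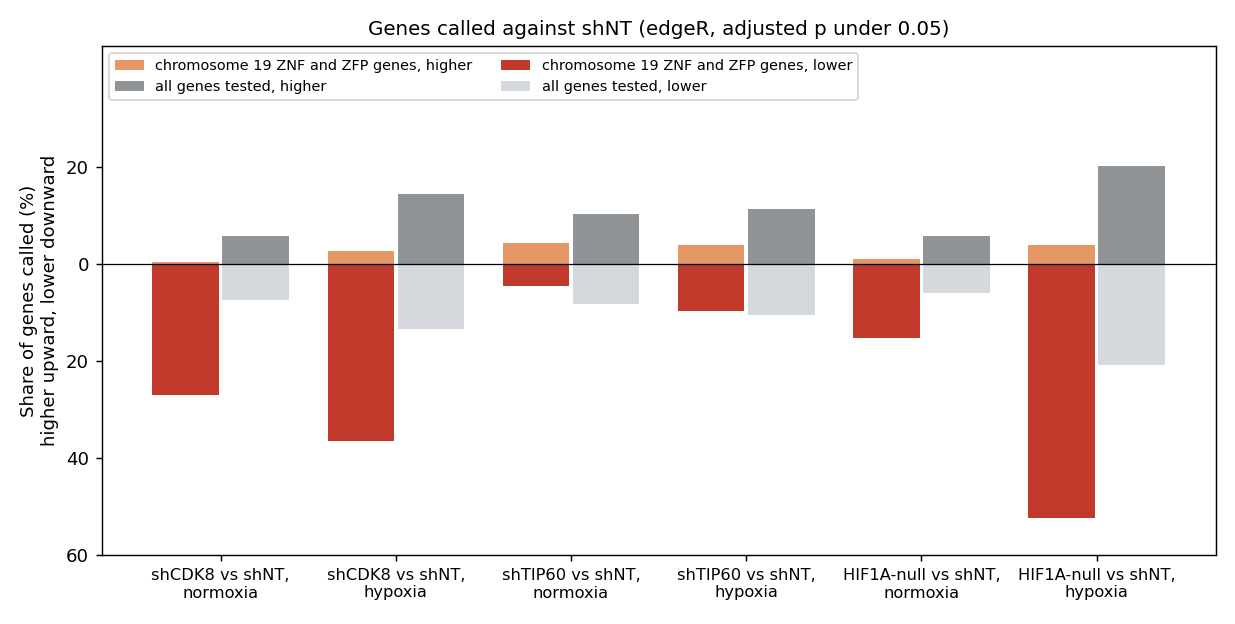
Share of genes called by edgeR against shNT (%, y axis; higher upward, lower downward) among 178 chromosome 19 ZNF and ZFP genes (coloured bars) and all 15520 genes tested (grey bars), for each line and oxygen condition. The share called lower is 27% and 36.5% in shCDK8 and 52.2% in HIF1A-null in hypoxia, against 7.27%, 13.4% and 20.8% of all genes.

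Of the chromosome 19 zinc finger genes, 10 of 149 with at least 1 CPM in the higher group were at least 8-fold lower in shCDK8 than in shNT in both oxygen conditions (6.71%), and none was at least 8-fold higher; over all 13114 such genes 0.343% were lower and 0.267% higher. ZNF614 and ZFP30, chosen for this, are 2 of the 10, and without them 8 of 147 were lower (5.44%). The 10 were ZNF426, ZNF136, ZNF44, ZNF850, ZFP30, ZNF234, ZNF350, ZNF615, ZNF614 and ZNF530, from chr19:9633899-9649321 (ZNF426) to chr19:58111253-58124090 (ZNF530) in GRCh37. ZNF850 (chr19:37205285-37263727) lies just beyond ZNF790-AS1 (chr19:37288403-37322498), the outermost gene counted on that side of ZFP30. ZNF850 had 0 counts in shCDK8 and 129 in shNT over both hypoxia libraries and 2 in shCDK8 and 133 in shNT in normoxia. ZNF350, ZNF615 and ZNF614 follow one another in the ZNF614 cluster. ZNF136 (chr19:12273879-12300686) and ZNF44 (chr19:12335501-12405698) also lie close together, far from both clusters described here. ZNF136 had log2 fold changes of -5.89 in normoxia and -5.18 in hypoxia, and ZNF44 of -5.39 and -4.33.

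Of 26 cofactors of KRAB zinc finger repression, 25 were tested. In shCDK8 against shNT none was lower and 3 were higher in normoxia, and 1 was lower and 9 higher in hypoxia, with a median log2 fold change of 0.0019 and 0.36 (0.009 and 0.016 over all genes). The higher calls were 12% of the list in normoxia, against 5.8% of all genes, and 36% in hypoxia, against 14.4%; the lower call in hypoxia was 4% of the list, against 13.4%. CBX1, an HP1 protein, was higher by 0.46 in normoxia (edgeR adjusted p = 0.02806), CHD3, a remodeller of the NuRD complex, by 0.44 (adjusted p = 0.02959) and KDM1A, a histone demethylase, by 0.41 (adjusted p = 0.043); PPHLN1 had 0.33 and did not pass (adjusted p = 0.0939). In hypoxia ATF7IP, a partner of SETDB1, was lower by a log2 fold change of -0.77 ± 0.15 (edgeR adjusted p = 0.001364), while KDM1A (0.58, adjusted p = 0.00308) and PPHLN1, a subunit of the HUSH complex (0.49, adjusted p = 0.008629), were higher. The part of these in the levels of the members was not tested.

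Over the 8 group means of log2 CPM, ZNF614 had a Pearson r of 0.974 with ZNF615, 0.975 with ZFP30, 0.877 with ZNF613 and -0.023 with ZNF616. Its most like genes of all those tested were ATRNL1 (0.9975), SERPING1 (0.9946), PSAPL1 (0.9929), KIRREL2 (0.9866) and FEZ1 (0.9859). Those of ZFP30 were PSAPL1 (0.9892), P4HA3 (0.9792), HKR1 (0.9791), FBXO25 (0.9761) and ZNF615 (0.976). The 8 points are groups from 4 lines and share those lines. ZNF614 and ZFP30 were both chosen for near absence from shCDK8, so these values, and both lists of most like genes, largely restate that choice. Over the 6 groups without shCDK8, the r of ZNF614 was 0.605 with ZNF615, 0.564 with ZFP30, 0.762 with ZNF613 and 0.938 with ZNF616, and it ran from 0.64 (PSAPL1) to 0.848 (ATRNL1) for its 5 most like genes. For those of ZFP30 it ran from 0.662 (HKR1) to 0.984 (PSAPL1). The order of the members thus differed with and without shCDK8, and all of these are descriptions.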

How the data were processed

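Libraries of polyadenylated RNA from HCT116 cells, 2 in each of 8 groups, were read on an Ion Torrent Proton sequencer per the labels' protocols. The authors deposited unscaled counts of reads for each gene symbol in 16 libraries. The submitters' processing notes name the builds hg19 and GRCh37 and, as tools, R (3.0.3), DESeq (1.14.0), HTSeq (0.5.4p5) and GSNAP (2013-10-28). The sources used here do not give the annotation or the strand setting.

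Low genes were dropped by group with edgeR 4.0.16 in R 4.3.3 (minimum 10 counts in a library and 15 summed), which left 15520 of 23669 (65.6%). All 16 libraries entered a quasi-likelihood fit with a term for each group and trimmed mean of M-values factors (0.862 to 1.12; 8 residual degrees of freedom), two-sided, with Benjamini-Hochberg adjustment at 0.05. DESeq2 1.42.0 and other settings were alternatives. CPM per kb used the length of 1 annotated transcript per gene. Where a group had 0 counts, a bound was set against 3 counts over the group; with 1 to 3 counts, a ratio with a 95% counting interval was given. Positions came from an annotation on GRCh37, promoters from RefSeq on GRCh38.p14. The steps were tested on simulated data. The members and lists were chosen with earlier results of these data known. Named genes were all members, the 3 targets, flanking genes called the same way in both oxygen conditions or among the 2 nearest on each side, chromosome 19 zinc finger genes past 8-fold in both, the 5 genes most like ZNF614 or ZFP30, and up to 4 cofactors with the smallest adjusted p in each condition, of which 1 is not reported here.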

Additional observations from a re-analysis of the deposited data

Results flagged for a closer look

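Of the members, 4 had a hypoxia response, hypoxia over normoxia on the log2 scale, that differed between HIF1A-null and shNT cells by a test of the difference itself (edgeR interaction term, adjusted over all genes tested; 8.92% of all genes were lower). The difference, HIF1A-null minus shNT, was -1.16 for ZNF614 (adjusted p = 0.02143), -1.77 for ZNF613 (adjusted p = 0.02309) and -1.42 for ZNF616 (adjusted p = 0.008596). For ZNF432 the fitted difference was -7.81 (adjusted p = 0.007959), a value that depends on the prior count because the HIF1A-null libraries in hypoxia had 0 counts. Each group has 2 libraries, and the design holds 1 HIF1A-null line.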

How the results depend on the processing

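Leaving out ZNF614 and ZFP30 wherever shCDK8 was compared, 1006 values of members were computed under the alternatives, of which 954 kept their direction and side of the threshold, 30 lost the call, 22 gained it and 0 reversed. The members called in shTIP60 against shNT moved from 1 to 3 in normoxia with no filter on low counts, with the replicate block and with only the groups compared fitted, and from 1 to 2 in hypoxia with no filter, with the replicate block and with DESeq2, and to 3 with only the groups compared. The members called in HIF1A-null against shNT in normoxia moved from 1 to 0, and those with a differing HIF1A-null response from 4 to 1, with only the groups compared; in shTIP60 the hypoxia response moved from 0 to 1 member with library totals alone and with only the groups compared. Leaving out 1 library at a time, neighbours called ranged from 2 to 3 for shCDK8 against shNT in normoxia and stayed at 3 in hypoxia, and at 2 for shCDK8 against shTIP60 in both. The same counts with ZNF614 and ZFP30, which the choice of genes fixes, were 4 to 5, 5 and 4. Members called ranged from 0 to 2 for shTIP60 in normoxia and at 1 in hypoxia, at 0 for HIF1A-null in normoxia and 5 in hypoxia, from 4 to 5 for the HIF1A-null response and from 2 to 5 for its difference from shNT, and at 0 for the other responses and response differences. Flanking genes called in shCDK8 against shNT ranged from 5 to 9 in normoxia, against 12, and from 12 to 15 in hypoxia, against 16. The library left alone in a group was assumed to vary like the others, and the cause of these moves was not tested. The column names carry no replicate number. The planned block by replicate number was therefore fitted by their 2 series of library numbers instead, chosen after the data were seen. Over 28 pairs of groups, deviations of same-series libraries correlated at 0.0733 to 0.498 (median 0.21), so libraries of a series deviated in part together. The main fit had no term for the series. Genes under about 10 counts per library, ZNF841 and the 3 around ZFP30 among them, are limited by depth.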
